A study of Mus musculus with 28 samples.

Results

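Matrix metalloproteinases (MMPs) and the tissue inhibitors of metalloproteinases (TIMPs) were followed through the conversion of Pre-B cells into macrophages. The 9 genes described are the 6 proteases Mmp8, Mmp9, Mmp12, Mmp13, Mmp14 and Mmp19 and the 3 inhibitors Timp1, Timp2 and Timp3, taken by symbol from a table of 55450 genes. They were joined with 10 promoter fragments of the Mmp gene cluster on chromosome 9, out of 18175 promoter fragments with a contact in any list. The genes were chosen with their RNA levels in these libraries already known, so their levels are a description and carry no test.

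MMPs are zinc-dependent endopeptidases that cut collagens, elastin, other matrix proteins and many secreted proteins. Most are secreted as inactive precursors and are activated by removal of the propeptide, and TIMPs block them by binding the active site. Macrophages are a known source of several MMPs, and in the mouse a run of MMP genes lies side by side on chromosome 9.

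The cells were C10, a mouse Pre-B cell line derived from HAFTL cells, in which a transgene encodes rat C/EBPα fused to the estrogen receptor hormone-binding domain (C/EBPαER). All groups were the same line and carried the transgene. The 0h cells were uninduced, and the 1h, 12h and 48h cells had been kept for that time with 100 nM β-estradiol, 10 nM IL-3 and CSF-1. RNA-seq had 3 biological replicates at each of the 4 time points (12 libraries), and Promoter Capture Hi-C (PCHi-C), which enriches the contacts of promoter-bearing HindIII restriction fragments (baits), had 2 replicates that were merged into 1 list per time point. RNA levels are TPM, in which each transcript is counted per length and set relative to all transcripts of the library. TPM hold no record of sequencing depth. No unconverted or untransfected line was analysed here, so the agents and the transgene cannot be told apart from time in culture.

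The cells were checked against marker genes. The summed TPM of 5 Pre-B cell markers was between 140 and 154 at 0h and between 16.2 and 20.6 at 48h, with Rag1 at 0 at 48h. That of 6 macrophage markers was between 2.11 and 3.1 at 0h and between 59.5 and 85.2 at 48h. Not every marker followed its sum. The Pre-B cell marker Cd79b had 36.78, 34.38 and 32 TPM at 0h and 6.26, 4.23 and 4.8 at 1h. It had 11.27, 12.58 and 15.35 at 12h and 10.88, 11.53 and 13.66 at 48h, most of the 48h sum. The macrophage marker Adgre1 had 0, 0 and 0.29 TPM at 48h, whereas the other macrophage markers all lay above their 0h libraries. Of 6 fibroblast markers, 5 were listed at 0 in every library and the sum did not pass 0.34, and the sum of 4 T cell markers did not pass 0.18. Scaling between libraries by the median of ratios used factors from 0.84 to 1.03 for the 0h libraries, from 1.33 to 1.56 for 1h, from 1.07 to 1.35 for 12h and from 0.627 to 0.752 for 48h. It moved the median log2 change over the genes tested from 0.59 to 0.02 (1h), from 0.34 to 0.07 (12h) and from -0.18 to 0.07 (48h).

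The promoters of the cluster are shown first, because the results below turn on it. The set of RefSeq (GRCm38) promoter windows used here held 7 of the 9 member genes and all 10 Mmp genes of the cluster. All 12 windows of the cluster equalled the genome sequence. The letters TGANTCA, the core of the AP-1 motif, were searched on both strands in the 250 bases before each start. They occurred in 6.75% of 32851 promoters and in 8 of the 10 Mmp genes of the cluster, with none in Mmp8 and Mmp27. In the last 120 bases before the start the share was 3.41% of all promoters and again 8 of the 10 genes. The shares are per promoter window, whereas a gene was counted where any of its windows matched, and the 10 genes have 12 windows. The motifs were chosen after the RNA levels had been seen, and a match is a description of letters, not of a bound site. The capitals in the sequences of Mmp13, Mmp12, Mmp1a and Mmp10 mark these letters in the 120 bases before the start, on the plus strand, at chr9:7272394-7272513, chr9:7347254-7347373, chr9:7464021-7464140 and chr9:7502222-7502341. Their first bases lie 35, 44, 73 and 63 bases before the start. Both of the member genes among them, Mmp13 and Mmp12, carry the letters within 50 bases of the start shown. For Mmp12 that is a start inside the gene, at 7347374, and the window before its first RefSeq start, at 7344397, has no match.
Mmp13: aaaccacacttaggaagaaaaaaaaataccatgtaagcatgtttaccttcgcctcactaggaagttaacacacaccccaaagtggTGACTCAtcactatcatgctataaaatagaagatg
Mmp12: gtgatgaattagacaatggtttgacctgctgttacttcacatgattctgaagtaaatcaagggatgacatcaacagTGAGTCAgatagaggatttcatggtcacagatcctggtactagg
Mmp1a: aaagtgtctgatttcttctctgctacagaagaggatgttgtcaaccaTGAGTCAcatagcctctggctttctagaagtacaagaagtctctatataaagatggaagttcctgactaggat
Mmp10: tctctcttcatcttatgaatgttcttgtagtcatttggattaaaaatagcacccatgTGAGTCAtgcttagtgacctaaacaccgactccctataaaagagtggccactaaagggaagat

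The letters TTGCNNAA, a form of the C/EBP motif, were found on either strand in the 250 bases of 9.56% of the promoters. With genes again counted where any window matched, they were found in 6 of the 10 Mmp genes of the cluster (Mmp12, Mmp3, Mmp10, Mmp8, Mmp27 and Mmp7). They are shown because the transgene encodes a C/EBP factor, with capitals on the matching letters, for Mmp12 (chr9:7344347-7344376), Mmp8 (chr9:7558399-7558428) and Mmp27 (chr9:7571328-7571357), all on the plus strand. The Mmp12 match reads on the minus strand and starts 39 bases before the first RefSeq start of the gene, the Mmp8 match 19 bases and the Mmp27 match 57 bases before the start. Mmp12 has a second RefSeq start, at 7347374, and the AP-1 letters lie before that one.
Mmp12: cagggggaagtTTAAGCAActaaagttttc
Mmp8: ttaggcagaagTTGCTCAAgatgtagcttt
Mmp27: accaactgtggTTGCAAAAttcaagtttat

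Mmp12 (ENSMUSG00000049723, chromosome 9, 7344381 to 7369499, plus strand, GRCm38), the macrophage elastase, had the highest level of the family at 48h. In the 3 libraries of each time, in replicate order, it had 0, 0 and 0.02 TPM at 0h, 0.07, 0.15 and 0.1 at 1h, 2.72, 2.62 and 2.83 at 12h, and 490.23, 574.97 and 409.2 at 48h. No time point overlapped the one before it. The mean at 12h (2.72 ± 0.105 TPM, SD, n = 3) was 25.5 times that at 1h, and the mean at 48h (491 ± 82.9 TPM, SD, n = 3) was 180 times that at 12h, with ratios of single libraries from 145 to 219. In order of TPM among all genes of a library, Mmp12 stood between 5371 and 6170 at 12h and between 20 and 29 at 48h. Its gene overlaps Mmp1b on the opposite strand, and Mmp1b was listed at no more than 0.07 TPM. These are bulk libraries, in which more cells with a transcript and more transcript per cell cannot be told apart.

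Mmp13 (ENSMUSG00000050578, chromosome 9, 7272514 to 7283331), collagenase 3, had 0, 0 and 0.02 TPM at 0h, 0.06, 0.14 and 0.02 at 1h, 3.72, 4.21 and 3.77 at 12h, and 100.24, 110.28 and 90.19 at 48h. The 1h libraries touched the highest 0h library, and the later times stood apart. The 48h mean was 25.7 times the 12h mean, with ratios of single libraries from 21.4 to 29.6.

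Mmp8 (ENSMUSG00000005800, chromosome 9, 7558456 to 7568485), the collagenase stored in neutrophil granules, was listed at 0 in all 0h libraries and had 0.31, 0.27 and 0.28 TPM at 1h, 8.08, 5.84 and 6.88 at 12h, and 36.18, 43.29 and 28.19 at 48h. Each time point lay above the one before it without overlap, and the 48h mean was 5.18 times the 12h mean. The sum of 9 markers of neutrophils and their precursors was between 0 and 0.96 TPM at 0h and between 10.2 and 17.8 at 12h. It was between 2.11 and 4.94 at 48h, when Mmp8 was at its highest. The 9 markers did not move as 1 set. By the rule given below, 4 were tested and 3 (Camp, S100a8 and Prtn3) were called higher at 12h, where 5.9% of all genes were. Ly6g was at 0 at 12h and Elane had 0, 0 and 0.12 TPM. Cxcr2 had means of 0.18 TPM at 0h, 0.807 at 1h and 0.637 at 12h. Of the defining markers, Mpo and S100a9 were at 0 in all libraries and Ltf was at 0 at 12h and 48h, whereas other granule genes were detected. Camp had 6.61, 8.64 and 10.83 TPM at 12h and 0.18, 0.41 and 0.5 at 48h, and most of the fall of the sum was in this gene. S100a8 was listed at 0 in all 0h and 1h libraries, had 1.71, 0.88 and 2.75 TPM at 12h and 2.1, 0.92 and 2.85 at 48h, and was called higher than 0h at both times by the rule given below. Prtn3 had 1.32, 2.42 and 3.33 TPM at 12h and 0.69, 0.44 and 1.19 at 48h. The part of these markers in the Mmp8 level was not tested.

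**Figure D1:**
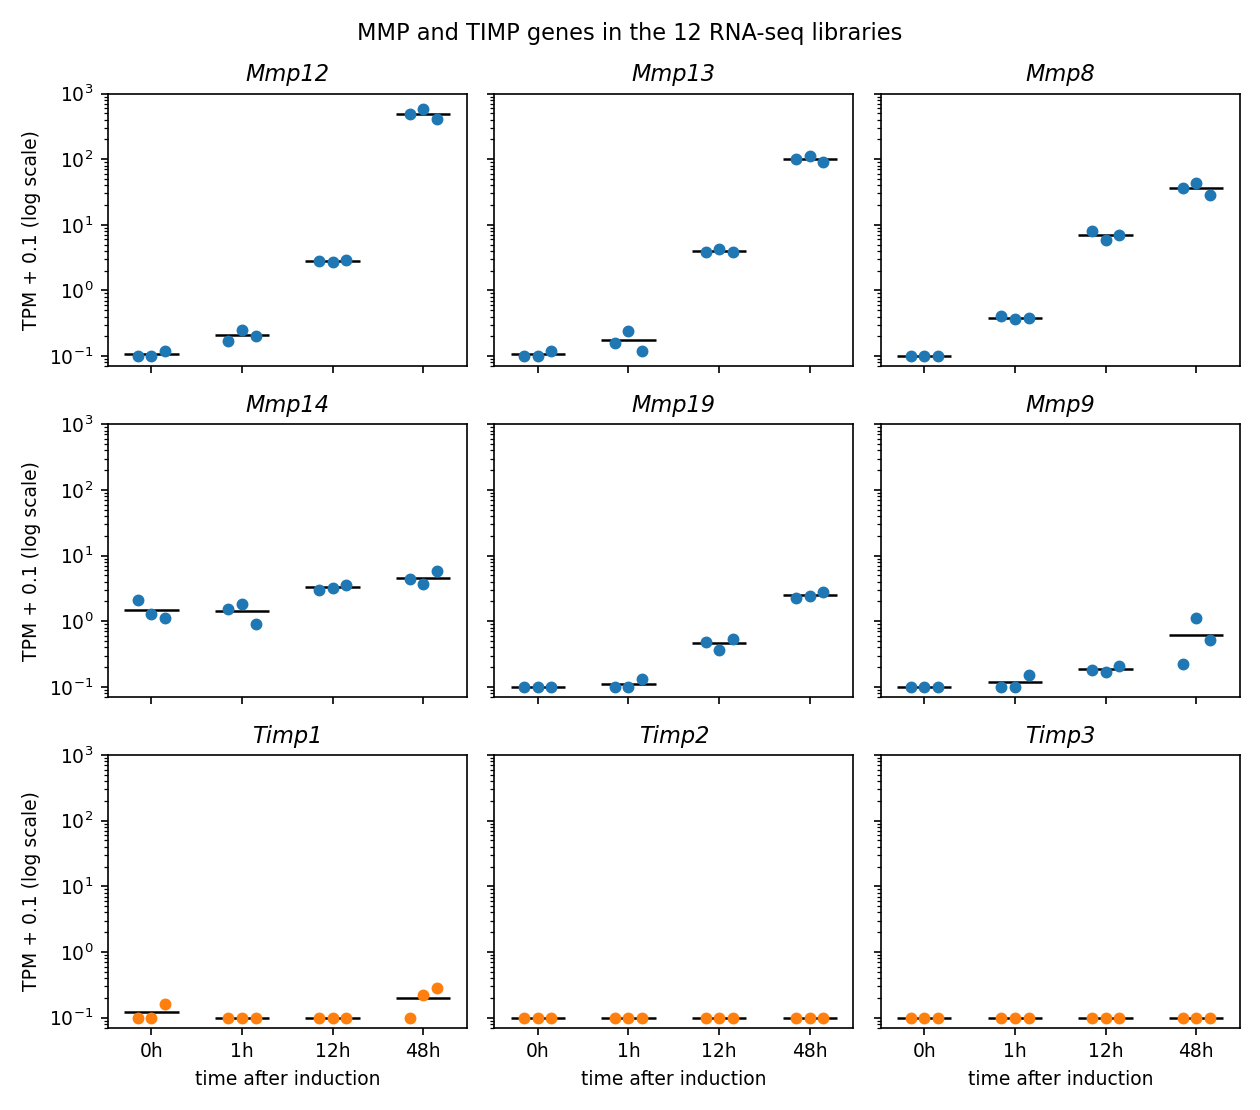
TPM + 0.1 on a log axis for the 9 genes in the 12 libraries, by time after induction (points: libraries, bars: means of 3). Mmp12 runs from 0.1 on this scale at 0h, which is a listed 0, to at least 409.2 TPM at 48h. Mmp14 has a mean of 1.41 TPM at 0h and 4.52 at 48h, and Timp2 and Timp3 stay at the lower end in all libraries.

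The order of the 3 collagenase and elastase genes of the cluster turned around between 12h and 48h. At 12h the order in every library was Mmp8, Mmp13, Mmp12, and at 48h it was Mmp12, Mmp13, Mmp8. The ratio of Mmp12 to Mmp13 within a library was 0.731, 0.622 and 0.751 at 12h and 4.89, 5.21 and 4.54 at 48h. The ratio of Mmp12 to Mmp8 was 0.337, 0.449 and 0.411 at 12h and 13.5, 13.3 and 14.5 at 48h, and that of Mmp13 to Mmp8 was 0.46, 0.721 and 0.548 at 12h and 2.77, 2.55 and 3.2 at 48h. None of the 3 ratios overlapped between the times. A ratio within a library does not depend on the scaling between libraries. Mmp12 made up between 15.2% and 16.2% of the summed TPM of the 6 MMP genes at 12h and between 76.3% and 78.2% at 48h, and that sum went from between 16.2 and 17.9 TPM to between 536 and 736.

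**Figure D2:**
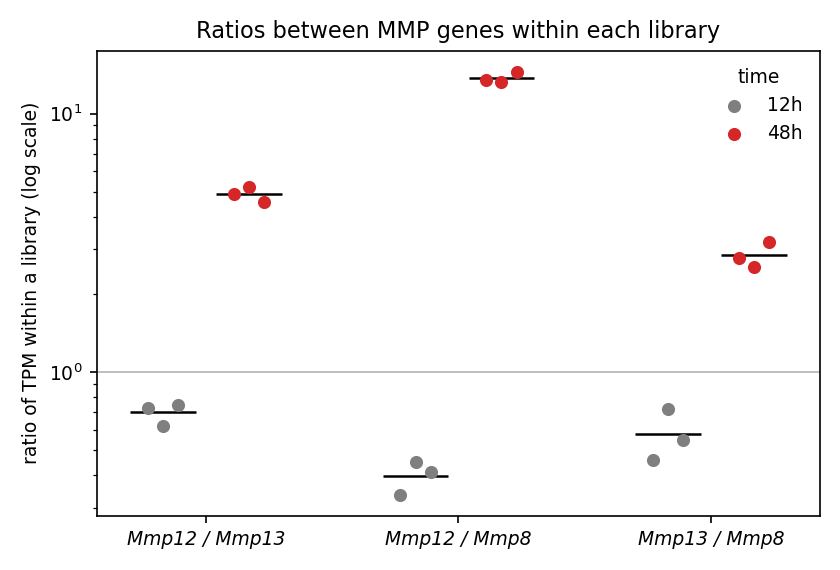
Ratios of TPM between Mmp12, Mmp13 and Mmp8 within each library at 12h and 48h, on a log axis (points: libraries, bars: means of 3, line: a ratio of 1). All 3 ratios lie below 1 in the 12h libraries and above 2 in the 48h libraries.

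Mmp14 (ENSMUSG00000000957, chromosome 14, 54431612 to 54445364), a membrane-anchored MMP that can activate other MMP precursors, was the one member above 1 TPM in all libraries before induction. It had 2, 1.21 and 1.01 TPM at 0h, 1.46, 1.73 and 0.82 at 1h, 2.94, 3.16 and 3.47 at 12h, and 4.28, 3.61 and 5.67 at 48h. The 12h and 48h libraries all lay above the 0h libraries, and the 1h libraries overlapped them. The 48h mean was 3.21 times the 0h mean, with ratios of single libraries from 1.8 to 5.61. On the log2(TPM + 0.1) scale the change at 48h was 1.65 (standard error 0.31), short of the log2 fold change of 2 used for calls here. With median-of-ratios scaling it was 2.06, past that limit.

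Mmp19 (ENSMUSG00000025355, chromosome 10, 128790910 to 128800824), a secreted MMP outside the cluster, was listed at 0 in all 0h libraries and had 0, 0 and 0.03 TPM at 1h, 0.38, 0.26 and 0.44 at 12h, and 2.15, 2.35 and 2.69 at 48h. The 48h mean was 6.66 times the 12h mean without overlap. The gene overlaps Gm47093 and Tmem198b on the opposite strand. Mmp9 (ENSMUSG00000017737, chromosome 2, 164940780 to 164955850), gelatinase B, was listed at 0 in all 0h libraries and had 0, 0 and 0.05 TPM at 1h, 0.08, 0.07 and 0.11 at 12h, and 0.12, 1.02 and 0.41 at 48h. Its 48h libraries spread widely (0.517 ± 0.459 TPM, SD, n = 3) around replicate 2.

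The inhibitors stayed at or near 0. Timp1 (ENSMUSG00000001131, chromosome X, 20870166 to 20874735), the inducible TIMP, had 0, 0 and 0.06 TPM at 0h, was listed at 0 in all 1h and 12h libraries, and had 0, 0.12 and 0.18 at 48h. The 48h libraries overlapped the 0h libraries. Timp2 (ENSMUSG00000017466, chromosome 11, 118301069 to 118355740) and Timp3 (ENSMUSG00000020044, chromosome 10, 86300372 to 86349506), the TIMP that binds to the matrix, were listed at 0 in all 12 libraries, and so were Timp4, Reck and A2m, which encode other MMP inhibitors. A listed 0 can be a failed estimate: Cd63, a gene that most cells use, was listed at 0 in 8 of the 12 libraries and at no more than 0.34 TPM in the others. Timp1 lies within Syn1 and Timp3 within Syn3, on the opposite strand, and Timp2 overlaps Cep295nl.

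Ranked by level, the 48h libraries gave Mmp12, Mmp13, Mmp8, Mmp14, Mmp19, Mmp9 and Timp1. No neighbours in that order overlapped except Mmp9 and Timp1. At 12h the order was Mmp8, Mmp13, Mmp14, Mmp12, Mmp19 and Mmp9, again without overlap between neighbours.

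In a limma fit across the 16415 genes that averaged 0.1 TPM or more, a gene was called where the Benjamini-Hochberg adjusted p was under 0.05 and the log2 fold change beyond 2. The 6 MMP genes passed that filter and the 3 TIMP genes did not. Mmp9 passed it through its 48h libraries, with means of 0.0867 TPM at 12h and 0.517 at 48h, so its 48h call is a description. Members called higher than at 0h were 0 of 9 at 1h, where 3.59% of all genes tested were called higher, 4 at 12h (Mmp8, Mmp12, Mmp13 and Mmp19), where 5.9% were, and 5 at 48h (also Mmp9), where 6.43% were. Since the members were chosen on these libraries, nothing is read from the counts. All 3 libraries of a time lay above all 3 at 0h for 2 members at 1h, where this held for 40.8% of all genes, 6 at 12h (30.6%) and 6 at 48h (19.2%). Between neighbouring times, 4 members were called higher at 12h than at 1h (2.07% of all genes) and 4 at 48h than at 12h (1.91%). The log2 fold changes from 12h to 48h were 7.43 (standard error 0.21) for Mmp12, 4.65 (0.25) for Mmp13, 2.45 (0.30) for Mmp19 and 2.35 (0.21) for Mmp8. With a pseudocount of 1 the Mmp19 change was 1.32 and was not called. The Mmp9 call at 48h was lost without 48h replicate 2, with a log2 fold change of 1.74. It was also lost without replicate 3 of every time, where the log2 fold change was 2.31 and the adjusted p was not under 0.05. Genes called lower than at 0h were 0.378% of all genes at 1h, 1.83% at 12h and 10% at 48h, and no member was among them. Over all genes, the 1h libraries gave 589 calls upward and 62 downward, the 12h libraries 968 and 301, and the 48h libraries 1056 and 1648. Under median-of-ratios scaling the splits became 180 and 103, 717 and 426, and 1508 and 1246.

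The table holds 17 other MMP genes, of which 6 (Mmp2, Mmp3, Mmp7, Mmp16, Mmp20 and Mmp25) were listed at 0 in every library and 3 passed the filter. None was called at 1h or 12h. At 48h only Mmp10, stromelysin 2, was called higher: it was listed at 0 in all 0h libraries and had 0.22, 0.39 and 0.36 TPM at 48h (adjusted p = 0.00564, limma), and the call was lost without 48h replicate 2, without 48h replicate 3 and with a pseudocount of 1. Mmp11, stromelysin 3, had 1.59, 0.48 and 1.17 TPM at 0h and 0.11, 0.29 and 0.48 at 48h, with a log2 fold change of -1.57 (standard error 0.44) that was not beyond 2. Mmp23 had 0.14, 0 and 0.30 TPM at 0h and 0.83, 0.62 and 0.54 at 1h. Mmp1a, Mmp1b and Mmp27, members of the cluster, were listed at no more than 0.12 TPM.

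**Figure D3:**
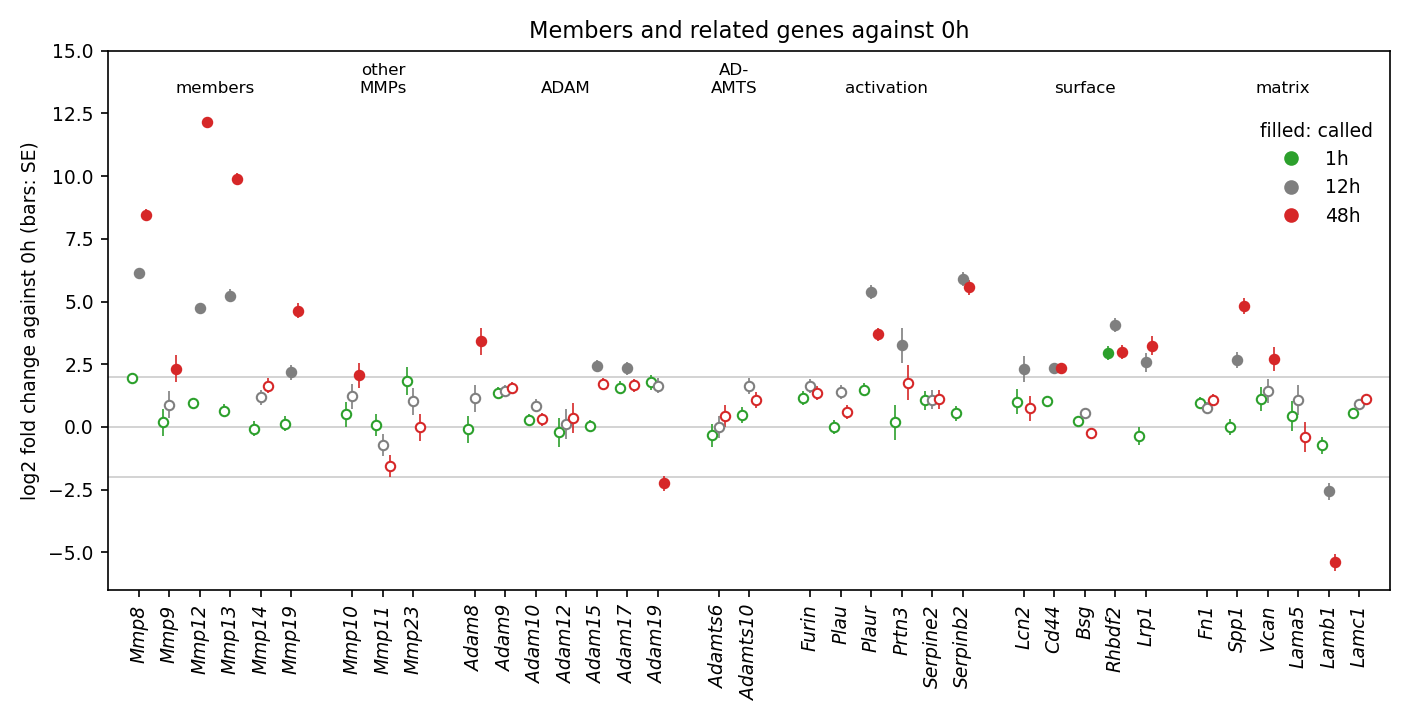
Log2 fold changes against 0h on log2(TPM + 0.1) for the 6 MMP members and 29 related genes that passed the filter, at 1h, 12h and 48h (bars: standard errors, filled points: called). For genes listed at 0 at 0h, the height depends on the 0.1 added. Mmp12 reaches 12.16 at 48h and Lamb1 falls to -5.40.

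The related genes were taken from 7 lists, and 29 of the 74 genes passed the filter (the 3 other inhibitors did not). Of the 29, the 1h contrast called 1 upward and 0 downward, the 12h contrast 10 and 1, and the 48h contrast 9 and 2. Over all genes tested, in the same order, 3.59%, 5.9% and 6.43% were called upward and 0.378%, 1.83% and 10% downward. These shares also stand beside the counts of the single lists below. In the order 1h, 12h and 48h, the tested ADAM genes had median changes of 0.27, 1.44 and 1.57 on the log2 scale, beside 0.59, 0.34 and -0.18 for all genes tested. The genes of MMP activation and serine proteolysis had medians of 0.80, 2.44 and 1.55, the surface partners 1.01, 2.34 and 2.34, the matrix substrates 0.49, 1.00 and 1.08, and the 3 other MMPs tested 0.50, 1.02 and -0.02.

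Among ADAM genes, which encode membrane-bound relatives of MMPs that shed surface proteins, 2 of the 7 tested were called higher at 12h. At 48h 1 was called in each direction. Adam15 had 3.23, 2.79 and 1.82 TPM at 0h and 10.95, 14.01 and 18.21 at 12h (log2 fold change 2.42, adjusted p = 2.86e-05, limma). Adam17, the TNF-converting enzyme, had 4.9, 5.23 and 2.73 TPM at 0h and 17.38, 18.84 and 28.92 at 12h (log2 fold change 2.33, adjusted p = 7.1e-05, limma). With median-of-ratios scaling the Adam17 change was 2.00 and was not called, and without replicate 3 of every time it was not called either. Adam8 had 0.14, 0.08 and 0.26 TPM at 0h and 2.25, 1.28 and 5.71 at 48h (log2 fold change 3.41, adjusted p = 0.000289, limma). Adam19 went the other way, from 1.39, 1.2 and 1.1 TPM at 0h to 0.08, 0.19 and 0.32 at 48h (log2 fold change -2.24, adjusted p = 8.15e-05, limma), after 5.27, 4.1 and 4.2 at 1h. Without 48h replicate 1 the Adam19 call was lost. Adam10 and Adam9, also of high level, were not called at any time. Of 13 ADAMTS genes, 8 were listed at 0 throughout, and neither of the 2 tested, Adamts10 and Adamts6, was called.

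Of the 6 tested genes of MMP activation and serine proteolysis, 3 were called higher at 12h and 2 at 48h. The list also holds a receptor and inhibitors, and the 2 called at 48h, Plaur and Serpinb2, are of that kind. Plaur, the urokinase receptor, had 1.49, 0.98 and 1.1 TPM at 0h, 42.86, 48.21 and 70.53 at 12h (log2 fold change 5.37, adjusted p = 1.45e-07, limma) and 11.89, 15.07 and 24.24 at 48h (3.69, adjusted p = 7.6e-07, limma). Serpinb2, an inhibitor of plasminogen activators, was listed at 0 in all 0h libraries and had 4.94, 7.12 and 5.76 TPM at 12h and 3.78, 5.61 and 4.7 at 48h. Prtn3, a serine protease of granulocyte granules, had 0, 0.36 and 0.21 TPM at 0h and 1.32, 2.42 and 3.33 at 12h (log2 fold change 3.25, adjusted p = 0.0047, limma), a call lost without replicate 3 of every time. Furin, which cleaves the propeptide of some membrane MMPs, and Plau, urokinase, had means of 2.29 and 1.09 TPM at 0h and 7.04 and 3.09 at 12h and were not called.

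Of the 5 surface partners, 1 was called higher at 1h, 4 at 12h and 3 at 48h. Rhbdf2, which encodes a cofactor of ADAM17, had 0.41, 0.9 and 0.53 TPM at 0h, 6.13, 4.96 and 4.42 at 1h (log2 fold change 2.93, adjusted p = 5.83e-05, limma), 8.93, 11.94 and 13.21 at 12h, and 4.7, 4.5 and 7 at 48h. Cd44, a hyaluronan receptor that can hold MMPs at the surface, had 6.9, 6.76 and 5.62 TPM at 0h, 29.71, 30.38 and 38.94 at 12h (log2 fold change 2.34, adjusted p = 3.81e-06, limma) and 28.47, 34.7 and 35.8 at 48h. Lrp1, an endocytic receptor that clears MMPs, had 0.88, 0.36 and 0.25 TPM at 0h, 2.86, 2.97 and 3.52 at 12h (log2 fold change 2.57, adjusted p = 0.000382, limma) and 4.15, 5.17 and 5.9 at 48h. Lcn2, which can bind MMP9, was called at 12h at no more than 0.47 TPM. It passed the filter through its 12h libraries, with means of 0.123 TPM at 1h, 0.4 at 12h and 0.08 at 48h. That call is therefore a description. Bsg had means of 16.9 TPM at 0h and 14.4 at 48h.

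Of the 14 matrix substrate genes, 5 were listed at 0 throughout and 6 were tested. Lamb1, a laminin chain, had 12.95, 13.96 and 15.25 TPM at 0h, 1.73, 2.55 and 2.72 at 12h (log2 fold change -2.56, adjusted p = 0.000192, limma) and 0.13, 0.16 and 0.52 at 48h (-5.40, adjusted p = 2.26e-07, limma). Spp1, osteopontin, was listed at 0 in all 0h and 1h libraries and had 0.47, 0.43 and 0.73 TPM at 12h and 2.13, 2.56 and 3.84 at 48h. Vcan, versican, had 0.02, 0.01 and 0.02 TPM at 0h and a mean of 0.713 ± 0.357 (SD, n = 3) at 48h (log2 fold change 2.72, adjusted p = 0.000643, limma). Lamc1 and Fn1 had means of 5.05 and 0.473 TPM at 0h and 11.1 and 1.09 at 48h and were not called.

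The genes whose log2(TPM + 0.1) followed each member most closely over the 12 libraries, out of 9281 genes that averaged 1 TPM or more, were Rnf213, C3ar1 and Ifi207 for Mmp12 (Pearson r 0.9974, 0.9969 and 0.9965), Ifi202b, Shisa5 and Scimp for Mmp13 (0.9979, 0.9959 and 0.9958), F5, Ifi208 and Tgfbr2 for Mmp8 (0.9947, 0.9943 and 0.9935), and Sp140, Plekho2 and Trio for Mmp14 (0.9629, 0.9597 and 0.9517). The 12 libraries fall into 4 time points, which all these genes share, so high values of r are a description of a common time course. Mmp12 and Mmp13 followed each other at 0.987, and Mmp12 and Mmp14 at 0.852.

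The MMP cluster spans 10 baits on chromosome 9, from Mmp13 (7272023 to 7276912) to Mmp7 (7690243 to 7692402), each bounded by HindIII sites in the genome. In order along the chromosome they hold starts of Mmp13, Mmp12, Mmp1b, Mmp3, Mmp1a, Mmp10, Mmp8, Mmp27, Mmp20 and Mmp7. The Mmp12 bait (7341455 to 7345182) holds the starts at 7344381 and 7344397 and not those at 7347374 and 7347406, and the Mmp27 bait (7563546 to 7571477) also covers the end of the Mmp8 gene. In the order 0h, 1h, 12h and 48h, the 4 lists held 138769, 137836, 131598 and 144072 contacts. The 0h list gives a CHiCAGO score, of at least 5, and the others give whole numbers taken here as read pairs, so contacts were compared by whether they were listed. The paper states a CHiCAGO score cutoff of 5 for its contact calls. The lowest listed value is 2 at each later time, and the cutoff behind those lists cannot be read from their values. A comparison with 0h therefore assumes that the stated cutoff was used for them too. With 1 merged list per time point there is no replicate error and no test.

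In that order, the 10 Mmp baits had 131, 249, 394 and 464 listed contacts, or 0.0944%, 0.181%, 0.299% and 0.322% of each list. The Mmp13 bait had 27, 56, 65 and 89 contacts at 0h, 1h, 12h and 48h. The Mmp12 bait had 14, 21, 72 and 63, so most of its gain came between 1h and 12h. The Mmp8 bait had 21, 35, 57 and 63.

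Baits of genes with little or no RNA moved in the same way. Mmp27 had 32, 58, 67 and 101 contacts, Mmp10 had 22, 54, 55 and 58, and Mmp1a had 9, 19, 67 and 69. Mmp1b had 2, 4, 9 and 16, Mmp20 had 5, 8, 7 and 10, and Mmp7 had 5, 6, 7 and 11. Mmp3 was the exception, with 2, 2, 4 and 1. A bait was called gained where its contacts at 48h were at least 1.5 times those at 0h, with at least 5 at either time. By that rule 9 of the 10 baits had gained contacts, and Mmp3 had too few to be counted. Of all 10487 baits counted, 29.6% had gained and 27.8% had lost contacts. Among the 10268 of them with a contact at 0h, the median ratio of 48h to 0h was 1. The ratio was 4.5 for Mmp12, 3.3 for Mmp13 and 3 for Mmp8, above 95%, 92.4% and 90.5% of those baits. Genes with little or no RNA had the highest ratios, 8 for Mmp1b and 7.67 for Mmp1a, above 98.6% and 98.5%. For the others it was 3.16 for Mmp27, 2.64 for Mmp10, 2.2 for Mmp7, 2 for Mmp20 and 0.5 for Mmp3. The 10 baits lie in 1 stretch and contact each other, so they are not independent.

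**Figure D4:**
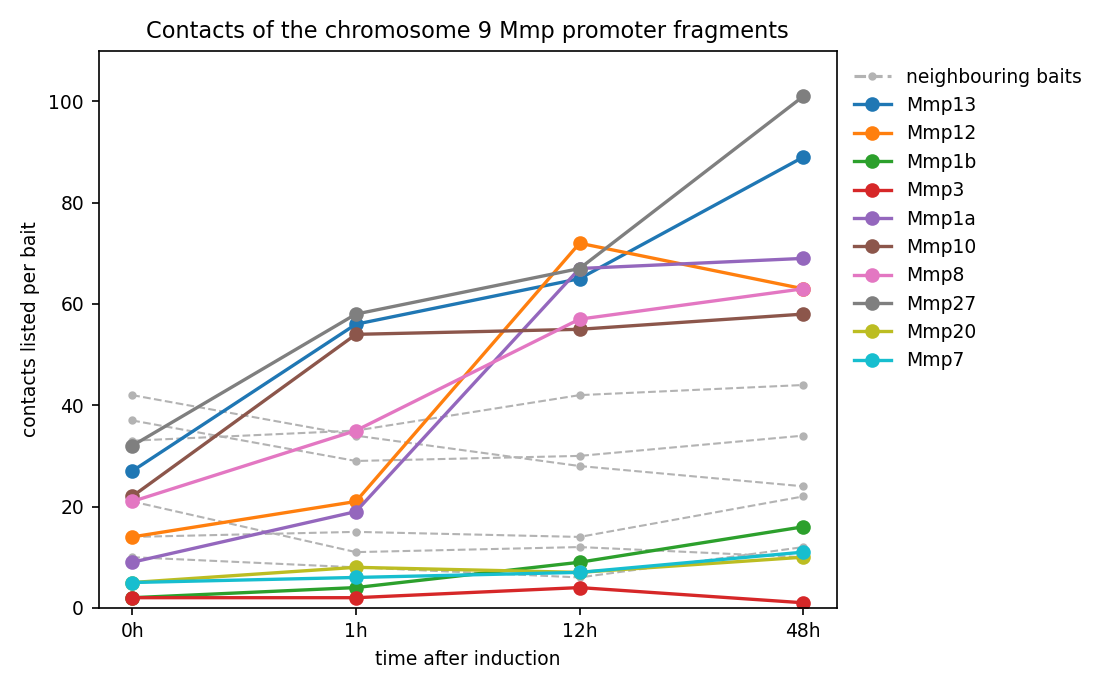
Contacts listed per bait at each time for the 10 chromosome 9 Mmp promoter fragments (solid lines) and for the baits within 500 kb with at least 5 contacts at any time (dashed grey lines). Mmp27 and Mmp13 reach 101 and 89 at 48h, while no neighbouring bait passes 44.

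Baits next to the cluster did not share the pattern in full. The bait of Dcun1d5 and Dync2h1 had 33 contacts at 0h and 44 at 48h, that of AV064505 had 10 and 12, and that of Tmem123 had 37 and 34, all under the threshold for a gain. A Birc3 bait had gained (14 and 22), and both Birc2 baits had lost contacts (42 and 24, and 21 and 10). Member genes outside the cluster differed from it. The 2 Mmp14 baits had lost contacts (12, 23, 11 and 5, and 18, 20, 13 and 11), and so had the Mmp19 bait (5, 10, 3 and 2), while the RNA of both genes was higher at 48h than at 0h in every library. The Mmp9 bait had 1, 3, 7 and 3 contacts and was too sparse to be counted. Timp1 had 5, 5, 4 and 6, Timp2 had 0, 3, 1 and 0, and Timp3, listed at 0 TPM, had gained contacts (1, 3, 5 and 9).

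The 0h contacts of the cluster were mostly kept. Of the 131 contacts at 0h, 109 (83.2%) were also listed at 48h, against 55.9% of all contacts in the 0h list. In the other direction, 23.5% of the 464 contacts at 48h had been listed at 0h, against 53.8% of all contacts at 48h. When a contact of the same bait within 10 kb was counted as shared, these shares were 97.7% and 80.9%, and 53.4% and 79.7%. The cluster had 131 contacts at 0h, so no more than 131 of the 464 could be the same contact. The shares in this paragraph thus depend on the gain in the number of contacts and are not a separate result. Over the 613 different contacts of the cluster, 148 (24.1%) were listed at 48h alone and 105 (17.1%) at 12h and 48h alone, against 14% and 4.44% of the 273644 different contacts of all baits. For Mmp12, 11 of 14 contacts at 0h were listed at 48h, and 52 of 63 at 48h had not been listed at 0h.

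The share of contacts near the promoters was higher at each later time. In the order of the times, the Mmp baits had 4, 40, 88 and 129 contacts under 100 kb, which is 3.05%, 16.1%, 22.3% and 27.8% of their contacts. In the whole lists the share was 25.2%, 26%, 28.9% and 26.4%. Contacts beyond 100 kb also increased in number, from 127 at 0h to 209, 306 and 335. The median distance of the Mmp contacts was 283, 241, 209 and 204 kb, and that of all contacts 190, 185, 169 and 177 kb. The Mmp13 bait had 0, 15, 20 and 47 contacts under 100 kb, and the Mmp1a bait 1, 4, 26 and 31. The baits differed in this. From 0h to 48h, Mmp27 went from 0 to 11 contacts under 100 kb and from 32 to 90 beyond it, and Mmp8 from 0 to 9 and from 21 to 54. Mmp20 and Mmp7 had none under 100 kb at any time.

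**Figure D5:**
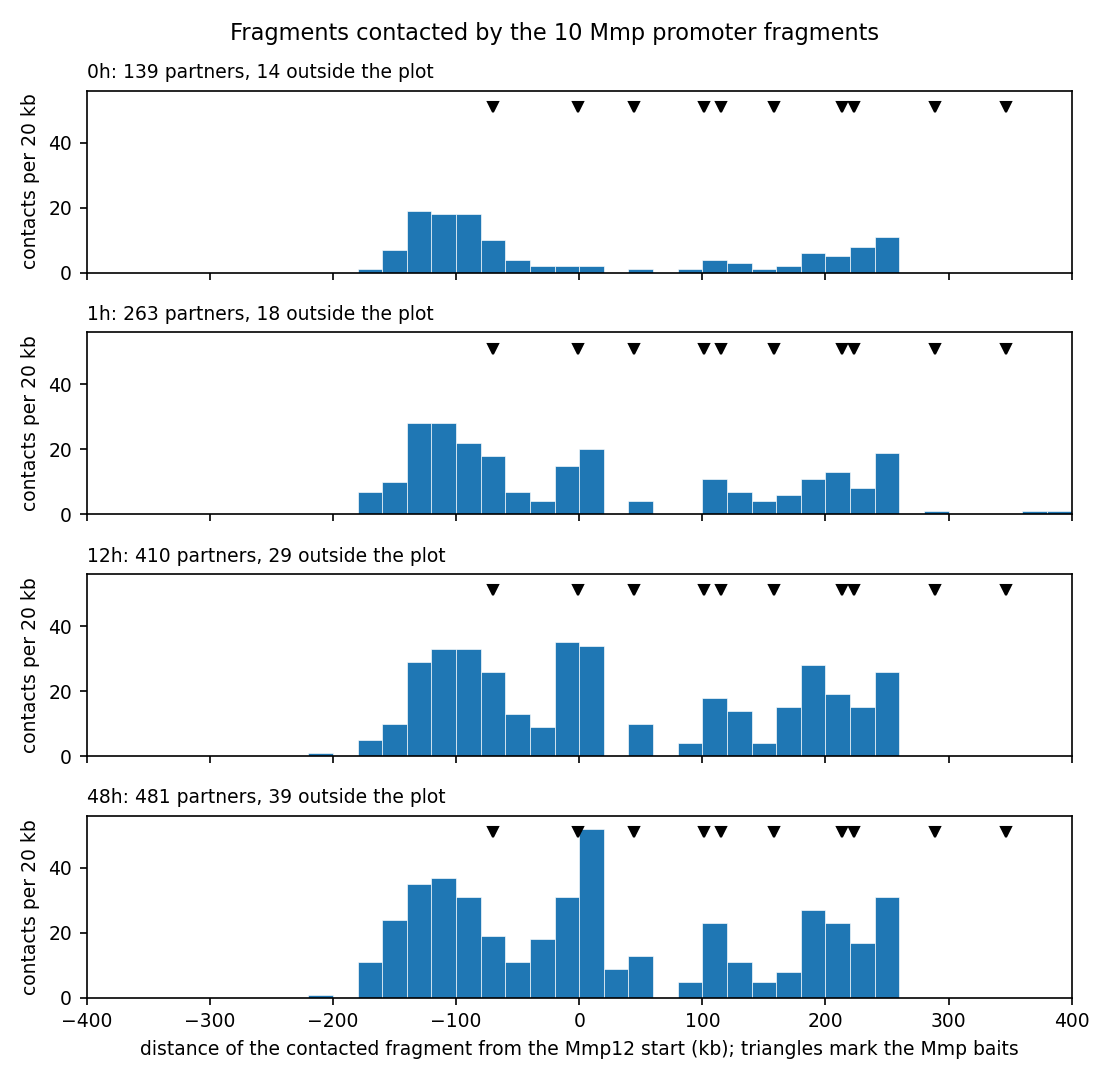
Fragments contacted by the 10 Mmp baits at each time, in bins of 20 kb by distance from the Mmp12 start (triangles: baits). A contact between 2 Mmp baits counts once for each. Fragments within 20 kb of the Mmp12 start have 4 contacts at 0h and 83 at 48h, and those between 180 and 60 kb before it have 73 and 157.

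Contacts with fragments within 20 kb on either side of the Mmp12 start numbered 4, 35, 69 and 83 in the order of the times, from 3, 5, 8 and 6 of the Mmp baits. Between 180 and 60 kb before that start, a stretch that runs from Dync2h1 past the Mmp13 gene, there were 73, 113, 136 and 157. Between 160 and 260 kb after it, in and beyond Mmp10, Mmp8 and Mmp27, there were 32, 57, 103 and 106. These windows were chosen after the positions had been seen.

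Single fragments were shared by many of the Mmp promoters. Outside the Mmp baits, 43 fragments were contacted by at least 5 of the 10 baits at 1 or more of the times, 2 of them at 0h and 36 at 48h. The contacts of the cluster rose from 131 to 464 between these times. The counts of shared fragments depend on that gain and are not a separate result. The fragment at 7217087 to 7218805, between genes and 8.88 kb from Dcun1d5, was contacted by 4, 4, 6 and 7 baits at 0h, 1h, 12h and 48h. That at 7595373 to 7596199, between genes and 13.5 kb from Mmp27, was contacted by 5, 4, 6 and 7. Both had at 48h contacts with Mmp13, Mmp12, Mmp1b, Mmp1a, Mmp10, Mmp8 and Mmp27. The bait of Dcun1d5 and Dync2h1 (7181838 to 7187686) was contacted by 1, 4, 5 and 7. A fragment in Mmp3 (7448346 to 7450918) was contacted by none of them at 0h and 1h, 3 at 12h and 6 at 48h. The TGANTCA letters occurred 0.44 times per kb in these 43 fragments and 0.319 times per kb over chromosome 9, and the TTGCNNAA letters 0.59 and 0.487 times.

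Pairs of Mmp baits in contact numbered 8, 14, 16 and 17 in the order of the times. The contact of Mmp13 with Mmp12, 68.9 kb apart, was not listed at 0h and had 40 read pairs at 1h, 21 at 12h and 60 at 48h. Mmp12 with Mmp27, 224 kb apart, was listed at 0h with a score of 9.61, not at 1h, and with 17 read pairs at 12h and 34 at 48h. Mmp13 with Mmp27, 293 kb apart, was listed at every time, with a score of 9.73 at 0h and 20, 21 and 31 read pairs. Read pairs depend on the depth of each library: over 57761 contacts listed at 1h, 12h and 48h the median ratio of 48h to 12h was 1.17, and over the 163 of the Mmp baits it was 1.22. For the 38 such contacts of Mmp13 it was 1.46 and for the 19 of Mmp12 it was 1.38. It was 1.08 for the 26 of Mmp8, 1 for the 25 of Mmp10, 1.1 for the 16 of Mmp1a and 1.25 for the 45 of Mmp27.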

How the data were processed

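RNA-seq (12 libraries) and merged PCHi-C lists (4 time points) were used; Hi-C was not used here. The authors trimmed reads with Trim Galore 0.6.2, mapped them to mm10 with HISAT2 2.1.0, merged technical replicates and deposited TPM estimated with RSEM. They called PCHi-C contacts with CHiCAGO on merged replicates and deposited a score per contact at 0h and whole-number counts, taken here as read pairs, at 1h, 12h and 48h. TPM keep no depth, so no counting error can be given.

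The test was limma 3.58.1 (R 4.3.3) on log2(TPM + 0.1) (1 model of 12 libraries, contrasts, eBayes with trend). The authors used DESeq2 on counts. Other steps used Python 3.11.15, numpy 2.4.6, pandas 2.3.3, scipy 1.17.1 and matplotlib 3.10.9. Positions and starts come from GENCODE M21 (GRCm38) and promoters from RefSeq (GRCm38). The model was tested on simulated data. Replicates are biological per the labels.

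The members, lists and tests were chosen with earlier results of these data known. Named genes are the members, every called gene of the lists of other MMPs, inhibitors, ADAM, ADAMTS, activation, surface and matrix genes, up to 3 others per list of highest mean TPM, and the 3 genes most alike to each member with a mean TPM of at least 1. A further few MMP genes, the marker genes and Cd63 were named after their values were seen. Alternatives varied the pseudocount, filter, scaling, trend, libraries, block, fold threshold and contact rules.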

Additional observations from a re-analysis of the deposited data

How the results depend on the processing

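No fold change of a called member or related gene changed sign under the alternatives, while the balance of calls over all genes at 48h turned with median-of-ratios scaling, from 1056 higher and 1648 lower to 1508 and 1246. Members called higher at 1h went from 0 to 1 with a log2 fold change beyond 1, 3 with a pseudocount of 0.01 and 2 with TPM rescaled without the 20 most abundant genes. With a pseudocount of 1 they were 2 at 12h, 3 at 48h and 2 at 12h against 1h, and 3 at 48h with a mean TPM of at least 1, a filter that removes Mmp9 and Mmp19. Related genes called higher at 1h, 12h and 48h were 8, 17 and 17 with a log2 fold change beyond 1, 0, 6 and 4 with a pseudocount of 1 (1 lower at 48h), 3 at 1h with a pseudocount of 0.01, and 5 at 48h with a mean TPM of at least 1. The calls lost with a pseudocount of 1, against 0h, were those of Mmp12 and Mmp19 at 12h, Mmp9, Mmp19, Mmp10, Adam8, Adam19, Rhbdf2, Spp1 and Vcan at 48h, Prtn3, Lcn2, Lrp1 and Spp1 at 12h, and Rhbdf2 at 1h. Between neighbouring times it lost the calls of Mmp12 and Mmp19 at 12h and of Mmp19 at 48h. Leaving out single libraries gave 1 to 2 related genes higher at 1h and 1 to 3 lower at 48h. Without 0h replicate 3 there were 2 higher at 1h. Without 48h replicate 1 there was 1 lower at 48h. Members numbered 4 to 5 at 48h and 3 to 4 for 12h against 1h. At a 0h score of at least 10 the cluster had 16 contacts at 0h. The count of 9 gained baits says nothing there, since 96.8% of all baits had then gained. The other 258 values of counts stayed within 1.5 times. Of the members' single fold changes, 13 lost and 12 gained a call and 655 did neither, and Mmp14 at 48h was called under median-of-ratios scaling (2.06).

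Replicate numbers were not taken as pairing the libraries: deviations of same-numbered libraries correlated from -0.01 to 0.26 in 18 pairs, over 0.1 in 5, and 7 of 12 libraries correlated best with their own number. The replicate 3 libraries deviated together (0.07 to 0.26 in their 6 pairs, -0.18 to -0.01 with other numbers), and other same-numbered pairs did not pass 0.11. Without replicate 3 of every time, an alternative chosen after seeing the data, members called higher were 0 at 1h, 4 at 12h and 4 at 48h, and related genes 1, 8 and 8. Against 0h, the calls lost were those of Mmp9 and Mmp10 at 48h and of Adam17 and Prtn3 at 12h. With the replicate number as a block, members called higher were 0 at 1h, 4 at 12h and 5 at 48h, and related genes 1, 10 and 9. TPM limit the precision for genes near 0, whose fold changes depend on the pseudocount, and the merged contact lists give no replicate error.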
